A study of Mus musculus with 4 samples.

Results

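The 10 genes described here are innate immune receptors and their shared adaptor: Cd14, Ly96, Tlr2, Tlr4, Tlr6, Tlr7, Tlr8, Tlr9, Tlr13 and Myd88, chosen by name out of the 27179 genes of the deposited expression table. All 10 were in the table, and all 10 passed the filter on low values used for testing, a mean of at least 0.5 FPKM (fragments mapped to a gene, corrected for its length and for the library's depth). RNA was sequenced from leukemia-initiating cells (LICs), which the sample labels call LSC, sorted by flow cytometry from the bone marrow of mice with acute myeloid leukemia (AML). The 4 libraries are 2 labelled WT and 2 labelled CD274-null, all from C57BL/6 mice given as 6 weeks old. CD274 (PD-L1) is the ligand of the immune checkpoint receptor PD-1, and the comparison asks which genes of the leukemia cells differ when it is missing. In both groups the leukemia was raised by a retrovirus carrying the MLL-AF9 fusion oncogene and a YFP tag, put into lineage-negative fetal liver cells that were then transplanted into lethally irradiated recipients. The oncogene is thus driven by a retroviral promoter, and the marrow can still hold cells of the host. LICs were defined as Mac-1+/c-Kit+ cells. The labels say that the sequenced cells were sorted, whereas the study's library methods speak of RNA from tissue, so unsorted marrow cannot be told apart from sorted cells here. Whether a library is 1 animal or a pool, and after which transplantation the cells were taken, is not given in the sources used here, so p-values measure the spread between these libraries, which may be technical.

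Toll-like receptors (TLRs) are membrane proteins of myeloid cells that recognize molecules of microbes and of damaged cells. TLR2, TLR4 and TLR6 work at the cell surface, where TLR2 pairs with TLR6 or TLR1 for lipoproteins, and TLR4 recognizes lipopolysaccharide together with MD-2 (encoded by Ly96) and the lipid-transfer coreceptor CD14. TLR7, TLR8, TLR9 and TLR13 sit in endosomes and sense nucleic acids. These receptors signal through the adaptor MyD88, which assembles IRAK kinases and TRAF6 and leads to NF-kappaB and MAP kinase activation. In normal hematopoiesis CD14 and most of these receptors are known from monocytes, macrophages and neutrophils, the lineages that MLL-AF9 leukemia resembles.

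Myd88 and Cd14 were the most abundant members in every library, in that order. Per gene length, the mean over the 4 libraries was 58.2 FPKM for Myd88 and 36.5 for Cd14, above 87.8% and 79.2% of the tested genes. Tlr2 followed with 12.7, Tlr13 with 8.24 and Tlr4 with 6.08. Tlr2 was near the middle of the tested genes, above 51.5% of them. Tlr6 (3.0), Tlr7 (2.28) and Ly96 (2.1) were lower, and Tlr9 (1.15) and Tlr8 (0.767) came last, Tlr8 being above 4.88% of the tested genes. The lowest Cd14 value (23.2) lay above the highest Tlr2 value (17.9). From Tlr2 downwards the ranges of each neighbouring pair in this order overlapped across libraries. Compared within each library, Tlr4 lay above Tlr6 in all 4, and so did Ly96 above Tlr9, though narrowly in CD274-null replicate 2 (1.998 against 1.91). The other neighbouring pairs there changed order between libraries and are not resolved. Members further apart were separate, since every Tlr2 value lay above all values of Tlr6, Tlr7, Ly96, Tlr9 and Tlr8. The lengths behind the FPKM values, as implied by the recovered reads, were 0.708 times the longest transcript for Tlr6 and 0.776 times for Myd88, and between 0.906 and 0.999 times for the other 8. Levels of Tlr6 and Myd88 relative to the rest carry that uncertainty.

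**Figure D1:**
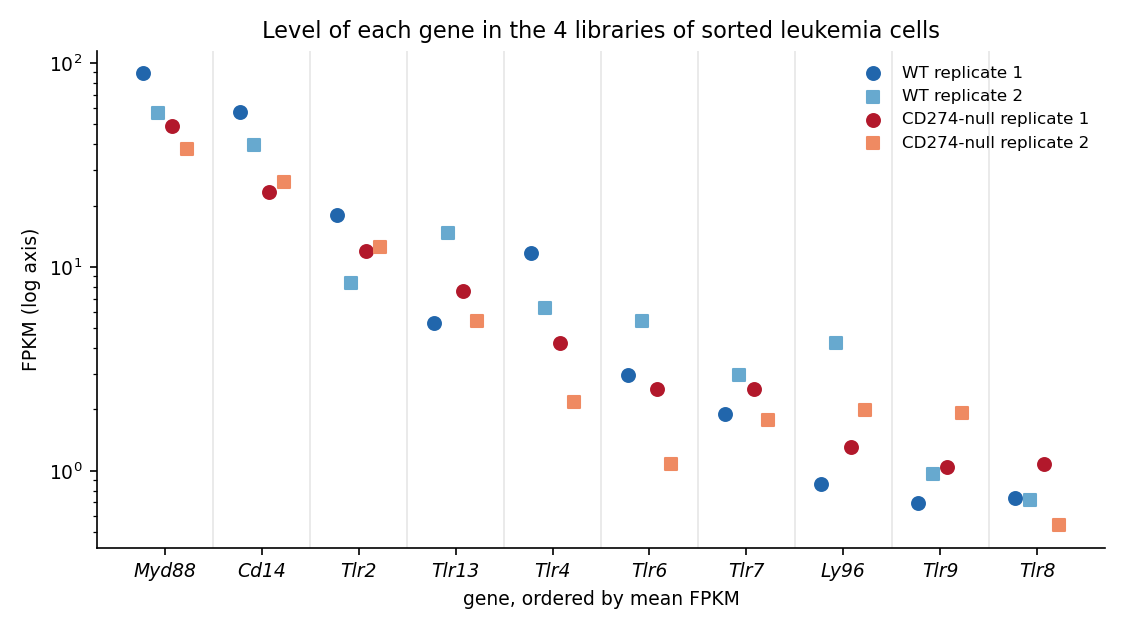
FPKM (log axis) of the 10 genes, ordered by their mean, with 1 point per library (circles replicate 1, squares replicate 2, blue WT, red and orange CD274-null). Myd88 runs from 37.9 to 89.1 FPKM and Tlr8 from 0.541 to 1.07, and the CD274-null points of Myd88, Cd14, Tlr4 and Tlr6 lie below both WT points.

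Reads recovered from the FPKM values summed to between 8018851 and 10686684 per library. Over all genes, 480 of the 13230 tested were candidates by the study's thresholds (an unadjusted p below 0.01 with a fold change beyond 1.5), which is 3.63%, and 10 had an adjusted p under 0.05 in limma. Cd274, the targeted gene, did not separate the labels, with 2.80 and 0.945 FPKM in the WT pair against 1.43 and 2.29 in the CD274-null pair. One value per gene does not show which exons were read, and groups are named by their labels throughout. The gating genes were present in all libraries, Itgam (Mac-1) between 100.2 and 174 FPKM and Kit between 6.59 and 19.5. WT replicate 1 stood apart, with the lowest Kit and the highest summed FPKM of 14 neutrophil genes (51800, against 16300 in WT replicate 2 and 29200 and 39600 in the CD274-null libraries). S100a8 (14520) and S100a9 (16800) made up much of that sum in WT replicate 1. Ngp, Lcn2, Mmp8, Mmp9 and Cxcr2 were also highest there. Mpo, Elane, Prtn3, Ctsg, Ltf, Camp and Csf3r were highest in another library.

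Of the 10 genes, Cd14 alone was a candidate, at 50.7% of its WT mean in the CD274-null libraries. Tlr4, Tlr6 and Myd88 also had both CD274-null values below both WT values, at 35.7%, 42.9% and 59.8% of the WT mean, but did not reach the candidate threshold. Tlr9 had both CD274-null values above both WT values, and the other 5 genes overlapped between the groups. As a background, both CD274-null values lay below both WT values in 21.8% of all tested genes and above them in 25.6%. Of the log2 fold changes (CD274-null minus WT, of FPKM + 0.5), 8 were below 0 and 2 above, with a median of -0.34 against 0.01 over all tested genes. No member passed an adjusted p of 0.05 in limma, where the adjusted p ran from 0.274 to 0.998, and 3 of 10 had an unadjusted p under 0.05, against 1818 of the 13230 tested genes (13.7%). In bulk RNA fewer cells of a type and less RNA per cell cannot be told apart.

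The sequence just upstream of an annotated start is shown for Myd88, Tlr6 and Tlr9, 3 of the 5 members whose groups did not overlap. None is shown for Cd14, and no entry was matched for Tlr4, Tlr7 and Ly96. The sequences come from RefSeq on GRCm38.p6 and run 5′ to 3′ on the gene's strand. Bases inside an annotated exon were left out, and capitals mark matches to 3 short motifs searched on both strands: GAGGAA for PU.1, AANNGAAA for interferon regulatory factors (IRFs) and TGANTCA for AP-1. A longer NF-kappaB motif was searched by the same means. For Tlr6 a sequence was available for 2 annotated starts, and both are given. Both lie inside the annotated gene, whose 5′ end is at chr5:64970942, and the sequence before that end is not shown.
Myd88, chr9:119340042-119340268, minus strand: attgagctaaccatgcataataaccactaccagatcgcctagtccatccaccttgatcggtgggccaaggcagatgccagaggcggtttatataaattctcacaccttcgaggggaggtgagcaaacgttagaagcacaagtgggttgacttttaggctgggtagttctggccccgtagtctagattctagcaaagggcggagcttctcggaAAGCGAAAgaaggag
Tlr6, chr5:64959167-64959416, minus strand: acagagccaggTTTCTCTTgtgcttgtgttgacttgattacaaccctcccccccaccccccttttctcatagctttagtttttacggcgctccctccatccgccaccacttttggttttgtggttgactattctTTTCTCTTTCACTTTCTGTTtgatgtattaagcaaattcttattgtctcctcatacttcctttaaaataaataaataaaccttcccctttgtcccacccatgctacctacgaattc
Tlr6, chr5:64960098-64960298, minus strand: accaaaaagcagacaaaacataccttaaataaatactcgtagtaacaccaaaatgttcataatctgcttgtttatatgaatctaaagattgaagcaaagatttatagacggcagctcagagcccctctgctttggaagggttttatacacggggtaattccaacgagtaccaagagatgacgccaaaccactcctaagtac
Tlr9, chr9:106222348-106222597, plus strand: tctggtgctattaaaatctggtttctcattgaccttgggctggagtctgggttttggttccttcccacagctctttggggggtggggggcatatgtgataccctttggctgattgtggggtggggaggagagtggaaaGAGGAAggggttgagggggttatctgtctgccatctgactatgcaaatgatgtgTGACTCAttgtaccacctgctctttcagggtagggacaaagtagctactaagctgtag
The 250 bases before the Myd88 start held 1 IRF match, beginning 38 bases before the start. The first Tlr6 sequence held 4 IRF matches, 3 of them overlapping in 1 block that begins 116 bases before the start, while the second held 0 matches of any motif. Tlr9 held 1 PU.1 match and 1 AP-1 match. No NF-kappaB match was found in the windows shown. Among members whose groups overlapped, the 250 bases before the Tlr2 start held 2 IRF matches and 3 overlapping NF-kappaB matches. Those before the Tlr8 and Tlr13 starts held 1 PU.1 match each. Of 32851 mouse promoters of the same length, 21.3% held an IRF match, 23.3% a PU.1 match, 6.75% an AP-1 match and 7.25% an NF-kappaB match. A match describes letters in the window and is not a binding site.

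Cd14 (NCBI gene 12475, chr18:36725064-36726815, minus strand) encodes the coreceptor that hands lipopolysaccharide to TLR4 and MD-2. Its FPKM was 57.4 and 39.6 in the WT pair against 23.2 and 26.0 in the CD274-null pair, from 994, 603, 307 and 387 recovered reads. WT replicate 1 was highest, both CD274-null libraries were close to each other, and the groups did not overlap. Without overlap, leaving out any 1 library could not turn the direction. The means were 48.5 ± 12.6 (SD, n = 2) and 24.6 ± 1.96 FPKM. Its log2 fold change was -0.94 (SE 0.25, 95% confidence interval -1.56 to -0.33, limma unadjusted p = 0.00914, adjusted p = 0.274). Leaving out 1 library in turn kept the direction, with log2 fold changes from -1.21 to -0.68, but Cd14 stayed a candidate only without WT replicate 2 (limma unadjusted p = 0.00326). Without WT replicate 1 its p was 0.0333, without CD274-null replicate 1 it was 0.0812 and without CD274-null replicate 2 it was 0.0539. With all libraries kept, it was a candidate in 5 of 12 alternative settings, and its p was 0.0109 to 0.0766 in the others.

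Tlr4 (21898, chr4:66827551-66846581, plus strand), the lipopolysaccharide receptor itself, had the lowest fold change of the 10. It stood at 11.6 and 6.28 FPKM in the WT pair against 4.23 and 2.17 in the CD274-null pair, from 518, 246, 144 and 83 reads. The 4 libraries had no overlap between groups, and each replicate 2 was about as far below its replicate 1, by a factor of 0.540 in WT and 0.512 in CD274-null. In limma the log2 fold change was -1.35 (SE 0.44, 95% confidence interval -2.41 to -0.29), with an unadjusted p of 0.02004 and an adjusted p of 0.306. It ranged from -1.77 to -0.93 with 1 library left out.

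Ly96 (17087, chr1:16688456-16709605, plus strand), which encodes the third component of the lipopolysaccharide receptor, MD-2, was barely covered. Its values were 0.860 and 4.24 FPKM in the WT pair against 1.31 and 1.998 in the CD274-null pair, and they rest on 6, 26, 7 and 12 reads. Both the lowest and the highest value were WT. The exact 95% Poisson interval of the 6 reads was 2.20 to 13.1 and that of the 26 reads 17 to 38.1, for counting error only. The log2 fold change was -0.25 (95% confidence interval -1.78 to 1.28, adjusted p = 0.888 in limma), and it turned to 0.65 without WT replicate 2. Those intervals of the 2 WT libraries do not overlap.

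Tlr2 (24088, chr3:83836272-83841824, minus strand), the lipoprotein receptor, had 17.9 and 8.36 FPKM in the WT pair against 11.96 and 12.6 in the CD274-null pair. Both CD274-null values lay between the WT values. The log2 fold change was 0.00 in size, with a 95% confidence interval from -0.92 to 0.92 (adjusted p = 0.998 in limma), so that changes of nearly 2-fold either way lie inside the interval. It was 0.53 without WT replicate 1 and -0.53 without WT replicate 2.

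Tlr6 (21899, chr5:64953092-64970942, minus strand), the partner of TLR2, stood at 2.96 and 5.44 FPKM in the WT pair against 2.52 and 1.08 in the CD274-null pair, from 89, 144, 58 and 28 reads. The groups did not overlap, but the gap between WT replicate 1 and CD274-null replicate 1 was smaller than the distance between replicates of either group. Its log2 fold change was -1.05 (SE 0.47, 95% confidence interval -2.20 to 0.09, adjusted p = 0.393 in limma). With 1 library left out, the log2 fold change of Tlr6 ranged from -1.52 to -0.58. The alternative partner Tlr1, with which Tlr6 shares the run printed next, had 11.9, 13.9 and 13.2 FPKM in the first 3 libraries and 5.16 in CD274-null replicate 2. The lowest value of both genes was thus in CD274-null replicate 2, and the groups overlapped for Tlr1 (log2 fold change -0.60, adjusted p = 0.567).

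Part of Tlr6 cannot be told from other genes by short reads. Reads averaged 50 bases, and 456 of the 3628 stretches of that length in the longest Tlr6 transcript (12.6%, GENCODE M21) also occur in another gene, Tlr1 or Ctsq. Tlr1 is the neighbouring paralog, and the longest identical run between both receptors is 229 bases inside the coding exon of each, at chr5:64953828-64954056 in Tlr6 and chr5:64925537-64925765 in Tlr1 (GRCm38, minus strand). It is shown because a read that falls in it fits both genes, so how the Tlr6 value was counted there is uncertain.
Tlr6 and Tlr1 shared run: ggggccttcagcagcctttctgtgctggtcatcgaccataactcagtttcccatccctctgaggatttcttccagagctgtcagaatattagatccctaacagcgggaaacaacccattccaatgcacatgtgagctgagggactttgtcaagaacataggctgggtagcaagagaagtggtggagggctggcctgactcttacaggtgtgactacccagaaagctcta

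**Figure D2:**
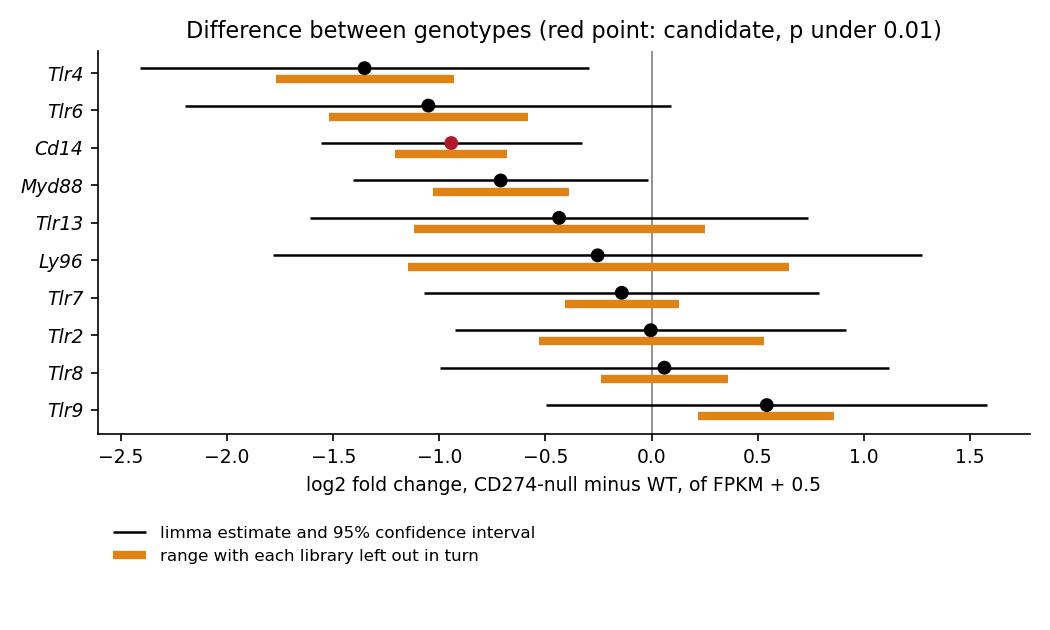
Log2 fold change of each gene (CD274-null minus WT, of FPKM + 0.5), with points and black lines for the limma estimate and its 95% confidence interval and orange bars for the range when each library was left out in turn. Cd14 (red) is the candidate at -0.94, Tlr4 is lowest at -1.35, and the orange bars of Tlr13, Ly96, Tlr7, Tlr2 and Tlr8 cross 0.

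The 4 endosomal receptors divided into 2 higher and 2 lower, with 0 candidates and a median log2 fold change of -0.04. Tlr7 (170743, chrX:167303380-167330574, minus strand), a receptor for single-stranded RNA, had 1.89 and 2.96 FPKM in the WT pair against 2.50 and 1.77 in the CD274-null pair. Tlr8 (170744, chrX:167241123-167264329, minus strand), its neighbour, had 0.739 and 0.715 in WT against 1.07 and 0.541 in CD274-null, from 17 to 30 reads a library. For Tlr7 1 CD274-null value lay between the WT values and the other below them, and for Tlr8 the CD274-null values lay on either side of both WT values. The log2 fold changes were -0.14 (95% confidence interval -1.07 to 0.79) and 0.06 (-0.998 to 1.12), with adjusted p-values of 0.900 and 0.964 in limma.

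Tlr9 (81897, chr9:106222598-106226876, plus strand), the receptor for unmethylated CpG DNA, had 0.697 and 0.962 FPKM in the WT pair against 1.04 and 1.91 in the CD274-null pair, from 28, 34, 32 and 66 reads. CD274-null replicate 2 was the high library, and CD274-null replicate 1 lay barely above WT replicate 2. This gave a log2 fold change of 0.54 (SE 0.43, 95% confidence interval -0.50 to 1.58, adjusted p = 0.595 in limma), and 0.22 to 0.86 with 1 library left out.

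Tlr13 (279572, chrX:106143275-106160493, plus strand), a receptor for bacterial ribosomal RNA, had 5.32 and 14.6 FPKM in the WT pair against 7.61 and 5.43 in the CD274-null pair, from 247, 597, 270 and 217 reads. WT replicate 2 was 2.75 times WT replicate 1, and the other 3 libraries were close to each other. The log2 fold change of -0.44 (95% confidence interval -1.61 to 0.74, adjusted p = 0.717 in limma) became 0.25 without WT replicate 2. Tlr7, Tlr8 and Tlr13 are X-linked, and the labels give no sex. Xist was at 2.57 and 51.1 FPKM in WT against 107 and 68.7 in CD274-null, while 4 Y-linked genes summed to 86.0 and 66.2 in WT against 0.0460 and 29.4 in CD274-null. Of these, Uty was a candidate, lower in CD274-null (log2 fold change -2.30). The part of this in the X-linked values was not tested.

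Myd88 (17874, chr9:119335934-119340018, minus strand) stood at 89.1 and 56.7 FPKM in the WT pair against 49.3 and 37.9 in the CD274-null pair, from 1963, 1099, 830 and 719 reads. WT replicate 1 was far above the other 3, and WT replicate 2 was closer to CD274-null replicate 1 than to WT replicate 1. The means were 72.9 ± 22.9 (SD, n = 2) and 43.6 ± 8.03 FPKM. Myd88 had a log2 fold change of -0.71 (SE 0.29, 95% confidence interval -1.41 to -0.01, unadjusted p = 0.0465, adjusted p = 0.356 in limma). Without WT replicate 1 it was -0.39 (limma unadjusted p = 0.192). In Myd88, 175 of 2409 stretches of 50 bases (7.26%) also occur, on the opposite strand, in transcripts of Acaa1a, an enzyme of peroxisomal fatty acid oxidation, with an exon overlap of 223 bases. The library kit does not mark strand, so reads there cannot be told apart. The FPKM of Acaa1a was 15.5 and 17.2 in the WT pair against 26.2 and 25.5 in the CD274-null pair, the opposite order to Myd88. The other 8 members shared 0 such stretches with any gene.

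Libraries of the same group differed widely for many of these genes. The WT libraries differed by more than 1.5-fold for 7 of 10 members, against 33.8% of tested genes, and the CD274-null libraries for 5 of 10, against 23.8%. The members did not vary together between the WT libraries. Myd88, Cd14, Tlr2 and Tlr4 were higher in WT replicate 1, the library with the highest neutrophil sum, whereas Ly96, Tlr13, Tlr6, Tlr7 and Tlr9 were higher in WT replicate 2, Ly96 by 4.92-fold. Tlr8 was nearly level, at a ratio of 0.968.

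**Figure D3:**
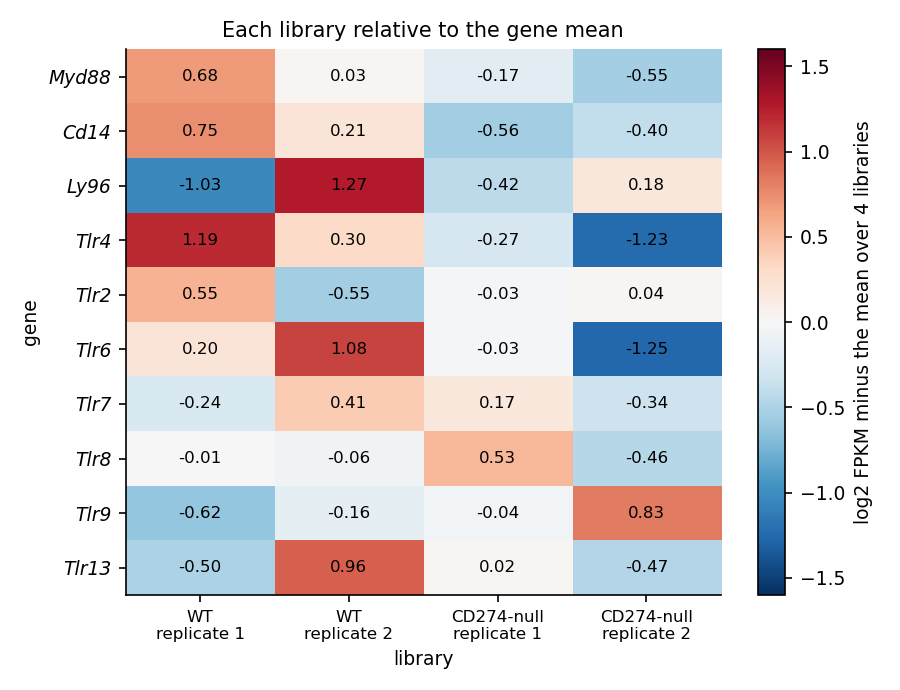
Heat map of log2 FPKM minus the mean over the 4 libraries for each gene (rows) in each library (columns), red above and blue below the gene's mean. Tlr4 goes from 1.19 in WT replicate 1 to -1.23 in CD274-null replicate 2, while Ly96 is lowest (-1.03) and highest (1.27) in the WT libraries.

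Marker genes of other cell types were summed for each library. The groups did not overlap in the summed FPKM of 9 plasma cell genes (195 and 89.9 in WT, 410 and 470 in CD274-null), 10 T and NK cell genes (33.4 and 13.7, 71.5 and 87.9), 12 dendritic cell genes (41.2 and 53.9, 63.5 and 83.1) and 10 B cell genes (12.9 and 37.0, 37.2 and 40.7). Xbp1 made up most of the plasma cell sums in WT and overlapped between the groups (177 and 66.8, 133 and 106), while in CD274-null Igkc (8.64 and 7.98, 214 and 189) and Ighm (9.04 and 14.1, 49.1 and 162) made up much of them. Bst2 was 36.4 of the 41.2 dendritic cell FPKM in WT replicate 1. The T and NK cell sums were almost all Nkg7 (32.4 and 11.7, 67.2 and 85.7). Those of B cells were almost all Cd79b, which overlapped between the groups (12.8 and 36.2, 35.6 and 37.4). Of the B cell genes, 7 and 6 were at 0 in the WT pair against 3 and 0 in the CD274-null pair. The candidates were 3 of 4 tested plasma cell genes, 1 of 2 T and NK cell genes, 1 of 4 dendritic cell genes and 0 of 1 B cell gene, beside 3.63% of all tested genes. All of them were higher in CD274-null, namely Jchain (0.370 and 0.514, 12.3 and 10.5), Igkc and Ighm of plasma cells, Nkg7 of cytotoxic lymphocytes and Tcf4, a transcription factor of plasmacytoid dendritic cells. Igkc (adjusted p = 0.00245) and Jchain (adjusted p = 0.0369) passed the adjusted threshold in limma, which 10 genes did in all. Of the 12 tested monocyte and macrophage genes, 10 had a log2 fold change above 0, the opposite of Cd14, and the list summed to 575 and 971 in WT against 960 and 1090 in CD274-null. Its 2 candidates went opposite ways, Vcam1 lower (log2 fold change -0.87) and Cd68 higher (0.85). Of the 14 neutrophil genes, 11 were above 0 and 3 below, and 1 was a candidate, Mpo, the myeloperoxidase of granulocyte precursors (1.44). The summed levels of the monocyte and neutrophil lists overlapped between the groups. Among erythroid genes, Slc4a1 and Car1 were listed at 0 in all libraries, and the list summed to 2.92 and 55.7 in WT against 4.85 and 0.589 in CD274-null. In WT replicate 2 that sum was nearly all globin (Hba-a1 18.1, Hba-a2 9.42 and Hbb-bs 26.9 FPKM). The part of these shifts in the values of the receptors was not tested.

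The rest of the pathway was taken from lists of 95 genes written from pathway knowledge. Of the 80 that passed the filter, 2 were candidates, 1 in each direction, where 3.63% of all tested genes were, and the median log2 fold change was 0.10. Traf6, the ubiquitin ligase that receives the signal of the MyD88 complex, had 18.5 and 19.3 FPKM in the WT pair against 10.9 and 7.57 in the CD274-null pair. Both WT values were alike and both CD274-null values lower. Its log2 fold change was -1.02 (SE 0.27, unadjusted p = 0.00847, adjusted p = 0.274 in limma), and it was no longer a candidate when any 1 library was left out (p from 0.0199 to 0.0690). With all libraries kept it also lost the call without a filter (limma unadjusted p = 0.0110), without the variance trend (0.0136) and without moderation (0.0547). Nlrp3, the sensor of an inflammasome, a complex that matures interleukin-1 beta, had 2.30 and 2.69 FPKM in WT against 8.91 and 15.1 in CD274-null. Its log2 fold change was 2.02 (SE 0.35, unadjusted p = 0.00102, adjusted p = 0.193 in limma), and it was 1.66 without CD274-null replicate 2, where Nlrp3 was no longer a candidate, as it was not without moderation either.

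The other Toll-like receptors were low apart from Tlr1. Tlr3, the receptor for double-stranded RNA, was between 0.0232 and 0.104 FPKM, and Tlr5, the flagellin receptor, between 0.0811 and 0.408. Tlr11 was listed at 0 in all 4 libraries and Tlr12 at 0 in all except CD274-null replicate 2 (0.0633). None of these 4 passed the filter.

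Of the 5 other adaptors with a TIR or related domain, all passed the filter and 0 were candidates. Tirap, which brings MyD88 to TLR2 and TLR4, had 11.1 and 7.63 FPKM in WT against 8.22 and 3.88 in CD274-null (log2 fold change -0.65, adjusted p = 0.518 in limma). Ticam1 (TRIF), the adaptor of the MyD88-independent branch, did not pass the test, with 7.85 and 11.1 against 9.75 and 10.04 (0.08, adjusted p = 0.921). Its bridging partner Ticam2 (TRAM) had 1.46 and 3.37 against 3.01 and 3.85 (0.51, adjusted p = 0.629). Sarm1 ran from 0.0583 to 1.29, both in CD274-null libraries. Pik3ap1 (BCAP) had both CD274-null values (25.8 and 21.8) below both WT values (30.8 and 40.3), with a log2 fold change of -0.56 (adjusted p = 0.372).

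Among the 19 kinases and ligases downstream of MyD88, 12 log2 fold changes were below 0 and 7 above (median -0.18), with Traf6 as the candidate. Among 8 tested accessory proteins that fold, transport or load the receptors, 7 were above 0 and 1 below (median 0.40), with 0 candidates. Transcription factors of the pathway (7 tested, median 0.14), its negative regulators (10 tested, median 0.15) and genes that TLR signals induce (11 of 18 tested, median 0.79) also gave 0 candidates, with 2, 3 and 3 unadjusted p-values under 0.05, a level that 13.7% of all tested genes reached. Other innate sensors had 10 of 14 above 0 (median 0.28), Nlrp3 among them, and 5 unadjusted p-values under 0.05.

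MyD88 also serves the receptors of interleukin-1 and interleukin-18. Of 7 listed genes of that family 5 passed the filter, 0 were candidates, and all 5 tested had a log2 fold change below 0, with a median of -1.39 and 3 unadjusted p-values under 0.05. Il1r1 was a candidate in 6 of the 12 alternative settings that kept all libraries. The next 3 were picked after their values were seen. Il1r1, the signalling interleukin-1 receptor, had 1.597 and 1.42 FPKM in WT against 0.247 and 0.219 in CD274-null (log2 fold change -1.45, adjusted p = 0.283 in limma). Il1r1 passed the filter of 0.5 FPKM only through its WT values, as its CD274-null mean was 0.233. Its coreceptor Il1rap had 12.5 and 4.58 against 3.26 and 2.70 (-1.23, adjusted p = 0.349), and the interleukin-18 coreceptor Il18rap had 58.9 and 30.8 against 20.7 and 12.3 (-1.39, adjusted p = 0.284). In each of them the groups did not overlap, as both CD274-null values were below both WT values in 21.8% of all tested genes, and WT replicate 1 was the highest library. Il1r2, the decoy receptor, had 137 FPKM in WT replicate 1 and 6.95, 7.41 and 4.34 in the other libraries, where the groups overlapped.

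**Figure D4:**
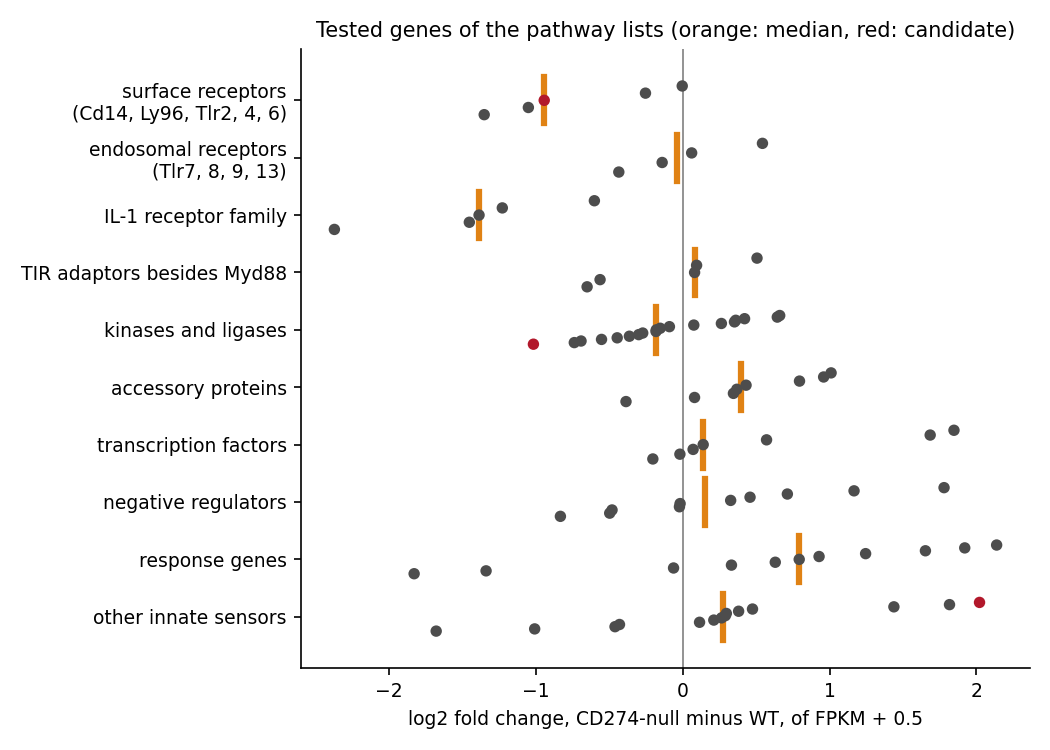
Log2 fold change (CD274-null minus WT, of FPKM + 0.5) of every tested gene in each list, 1 point a gene, with the list's median in orange and candidates in red. The surface receptors have a median of -0.94 and the IL-1 receptor family one of -1.39, while the induced response genes have one of 0.79, and Cd14, Traf6 and Nlrp3 are the 3 red points.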

How the data were processed

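RNA of 4 libraries was prepared by the authors with the TruSeq v2 kit, sequenced on a HiSeq platform in reads of about 50 bases and aligned to GRCm38 with TopHat2 2.0.12. The submitters' processing notes also name CASAVA 1.8.2. What the authors deposited is a table of FPKM, 1 for each gene and library. The program, gene lengths and strand setting behind it are not given in the sources used here. Columns were assigned to libraries by their labels.

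Symbols were looked up in RefSeq by gene number (25275 of 27179 matched). The members and lists were chosen with earlier results of these data known. All 10 members, the other Toll-like receptors and TIR adaptors were named, and from other lists the candidates. Cd274, Itgam and Kit were named as checks, and Xist and the Y-linked genes beside the X-linked members. Genes outside this rule (of the interleukin-1 receptor family, and Xbp1, Bst2, Cd79b, Slc4a1, Car1 and Acaa1a, the globins and the neutrophil genes other than Mpo) were chosen after their values were seen.

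Values were compared as log2(FPKM + 0.5) with limma 3.58.1 under R 4.3.3 (a linear model of all 4 libraries without covariates, then eBayes with a variance trend) over the 13230 genes whose mean FPKM reached 0.5, with Benjamini-Hochberg adjustment over all of them. The pseudocount understates changes of low genes. In simulated data of 13046 genes, 99.5% of 200 genes changed 4-fold and 0.996% of unchanged genes were called. The simulation gave every gene the same relative spread beyond counting error. In the real data the WT libraries differed by more than 1.5-fold for 33.8% of tested genes and the CD274-null libraries for 23.8%. The simulated shares therefore need not hold here. With 2 libraries per group, a gene's spread rests largely on that of other genes.

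FPKM values of a gene stand in whole-number ratios once relative depth is known (1, 0.880, 0.765 and 0.861). Whole reads in lowest terms were recovered for 17073 of 17083 genes above 0 in at least 2 libraries (99.9%). A factor common to all reads of a gene is lost this way, and in simulated reads 91.5% of genes were recovered in full. Reads of the members were scaled by comparing the implied length with the longest GENCODE transcript, which doubled those of Tlr9. Intervals of reads cover counting error only, since the reads carry no molecular identifiers. Sequence was compared and plotted in Python 3.11.15. Alternatives were other pseudocounts, filters and normalizations, other variance settings, voom on recovered reads, a replicate block, leaving out each library and, chosen after the data were seen, a correction for GC content. A gene that the rule for markers names is left out of the text.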

Additional observations from a re-analysis of the deposited data

How the results depend on the processing

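Across all genes, 480 candidates became 170 without moderation of the variance, and 147 to 634 when 1 library was left out (147 without CD274-null replicate 2, 235 without CD274-null replicate 1, 634 without WT replicate 2). Voom on recovered reads gave 452. Among the members the count of 1 became 0 without a filter, with quantile normalization, with equal medians, without the variance trend, without moderation and with voom, and 0 to 1 with 1 library left out. In those 6 settings the p of Cd14 was 0.0109 to 0.0766, and its adjusted p was 0.249 to 0.540 over the 12 alternatives that kept all libraries. Among the other pathway genes the count of 2 became 1 without moderation (Il1r1, with neither Traf6 nor Nlrp3) and 0 to 9 with 1 library left out (0 without CD274-null replicate 2, 6 without WT replicate 1, 9 without WT replicate 2). With 1 library left out, the log2 fold change of Ly96 ran from -1.15 to 0.65 (0.65 without WT replicate 2), of Tlr2 from -0.53 to 0.53 (0.53 without WT replicate 1, 0.03 without CD274-null replicate 1), of Tlr7 from -0.41 to 0.13 (0.13 without WT replicate 2, 0.06 without CD274-null replicate 2), of Tlr8 from -0.24 to 0.36 (-0.24 without CD274-null replicate 1) and of Tlr13 from -1.12 to 0.25 (0.25 without WT replicate 2). Each crossed 0. Tlr8 also turned with quantile normalization (-0.09). Cd14, Tlr4, Tlr6, Tlr9 and Myd88 kept their direction in every alternative run. Their groups did not overlap, so with 1 library left out their direction could not turn. The cause of these changes was not tested, but fewer libraries enter where 1 is left out.

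Libraries of the same number share only a number in the labels, and their deviations from the group means did not go together (correlation -0.02 across genes, which are not independent replicates). With a replicate block there were 526 candidates, 2 of them members (Cd14, and Tlr4 at a limma unadjusted p of 0.00567) and 11 other pathway genes, among them Nlrp3 but not Traf6 (0.0102). With the GC correction and the replicate block together there were 333, of which 12 were other pathway genes (Traf6, at 0.0118, not among them) and Tlr4 (limma unadjusted p = 0.00947), not Cd14 (0.0143), was the member. Counts were lowest for Ly96, Tlr8 and Tlr9.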

Other observations

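Sums and ratios over the receptors were looked at after their values were seen, and no test was made of them. For every FPKM of Tlr4 there were 1.54 and 1.33 of Tlr2 in the WT pair, against 2.83 and 5.80 in the CD274-null pair, without overlap. The 7 Toll-like receptors together came to 41.2 and 39.3 FPKM in the WT pair against 30.9 and 25.5 in the CD274-null pair. The 4 endosomal ones among them came to 8.65 and 19.2 in WT against 12.2 and 9.65 in CD274-null, where the groups overlapped, and WT replicate 2 owed most of its sum to Tlr13.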
